A study of Mus musculus with 8 samples.

Results

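The 10 keratin genes described here build the filaments of the epidermis, and they were chosen by name: Krt5, Krt14 and Krt15 of the basal layer, Krt1, Krt10, Krt2 and Krt77 of the suprabasal layers, and Krt6a, Krt16 and Krt17, which are inducible in injured or proliferating epidermis and are made by hair follicle cells. All 10 of 10 had 1 transcript cluster each (the set of array probes that reads 1 gene) among 19938 genes with 1 symbol, and 9 of the 10 passed the filter on dim values that left 15174 genes for testing. Krt2 did not pass. Total RNA was taken from the whole thickness of mouse skin at E17.5, on a Mixed C57BL6/SV129 background, and 8 individual RNAs were each read on 1 Affymetrix array. The 4 control arrays carried RNA labelled wildtype for PPARgamma, and the 4 others carried RNA labelled PPARgamma null (PpargΔ/Δ), called Pparg null below. Pparg encodes the nuclear receptor PPARgamma, and the series asked how skin differs without it. The labels name no deleted exon, Cre driver, sex, body site or litter, and do not say whether an RNA came from 1 embryo, so p-values measure the spread between these RNAs.

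Keratins assemble as pairs of a type II and a type I protein. Basal keratinocytes, which divide and rest on the basement membrane, make Krt5 with Krt14, and Krt15 is another type I keratin of that layer. As cells leave the basal layer they switch to Krt1 with Krt10, and Krt2 is added in late, upper layers. Krt77 is a type II keratin of suprabasal mouse epidermis. Krt6a, with its type I partners Krt16 and Krt17, marks wound edges and the outer root sheath and companion layer of hair follicles; periderm, the transient outer cover of embryonic skin, makes Krt6a and Krt17 as well.

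Values are log2 after RMA, a procedure that corrects background and equalizes the distributions of the arrays, so they can be compared between arrays for 1 gene and not between genes. Array medians lay between 6.93 and 6.96, and pairs of arrays correlated at r = 0.989 to 0.994 over all 35556 clusters. The Pparg cluster did not check the labels: it read 8.79 to 9.06 on control arrays and 8.98 to 9.19 on Pparg null arrays, and it may lie outside the deleted part. Control array 1 and Pparg null array 4 stood apart from the rest on the first component of the tested genes, computed without the keratins (scores of 9.49 and 22.5, against -9.00 to 0.98 on the other 6 arrays), and results that rest on them are given with and without them. Full-thickness skin holds epidermis, follicles, dermis, fat and muscle, so fewer cells of a type and less RNA per cell cannot be told apart.

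Promoter sequences from RefSeq (GRCm38.p6) covered 5 of the 10 genes, running from 250 bases before the annotated start to 50 after it. Of these, 3 are shown because they contrast a steady basal keratin (Krt5), a steady suprabasal keratin (Krt10) and the keratin that varied most between arrays (Krt77). Capitals mark the letters TATAAA, the letters TATATA and the letters ATAAAA, each searched on both strands, with overlaps joined. The Krt5 window is chr15:101712856-101713155, that of Krt10 chr11:99389315-99389614 and that of Krt77 chr15:101869656-101869955, all on the minus strand, and each sequence is written 5′ to 3′ along its gene.
Krt5: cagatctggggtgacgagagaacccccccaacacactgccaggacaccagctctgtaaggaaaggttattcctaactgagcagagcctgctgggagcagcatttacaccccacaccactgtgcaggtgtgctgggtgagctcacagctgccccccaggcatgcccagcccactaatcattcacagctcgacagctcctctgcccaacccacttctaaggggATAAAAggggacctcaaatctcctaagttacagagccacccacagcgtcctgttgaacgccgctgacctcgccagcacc
Krt10: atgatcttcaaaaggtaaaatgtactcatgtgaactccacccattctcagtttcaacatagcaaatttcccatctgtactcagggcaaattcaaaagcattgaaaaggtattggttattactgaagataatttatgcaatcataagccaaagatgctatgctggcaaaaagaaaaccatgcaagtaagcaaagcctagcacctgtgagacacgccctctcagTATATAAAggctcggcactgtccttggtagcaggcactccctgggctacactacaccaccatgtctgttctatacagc
Krt77: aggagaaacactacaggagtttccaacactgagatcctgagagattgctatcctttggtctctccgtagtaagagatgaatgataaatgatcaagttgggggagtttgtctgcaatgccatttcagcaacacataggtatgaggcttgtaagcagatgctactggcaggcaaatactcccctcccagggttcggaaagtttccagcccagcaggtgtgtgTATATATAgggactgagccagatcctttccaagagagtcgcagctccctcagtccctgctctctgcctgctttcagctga

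In Krt10, TATATA began at -28 from the start and overlapped with TATAAA at -26, and Krt77 held TATATA in 2 overlapping copies. Krt2, which is not shown, held 1 TATATA, so all 3 of the suprabasal keratins with a promoter entry had it, against 5.67% of all 32851 promoter entries. Krt5 held ATAAAA, as did 18.5% of entries, and none of the 3 motifs was found in the Krt14 window. TATAAA was present in 13.6% of entries. The letters were chosen after the sequences were seen, and a match describes the sequence without showing that it is used. The steady Krt10 and the variable Krt77 both hold TATATA.

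No keratin differed between the genotypes beyond the spread between arrays. Of the 9 tested members, 0 passed a limma adjusted p of 0.05 and 0 had an unadjusted p under 0.05, where 18 of all 15174 tested genes passed (0.119%; 3 to 15 genes with 1 array left out) and 3.61% had an unadjusted p under 0.05. All 10 members overlapped between the groups, as did 97.5% of all tested genes, with 5 members lying above control in their mean and 5 below. The median difference of the 9 tested members was -0.01, and that of all tested genes was -0.00058. The adjusted p of every tested member was 0.9995 in limma, and the exact two-sided permutation p ran from 0.257 for Krt17 to 0.771 for Krt14 and Krt16, with 0.0286 the smallest that 4 against 4 can give.

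**Figure D1:**
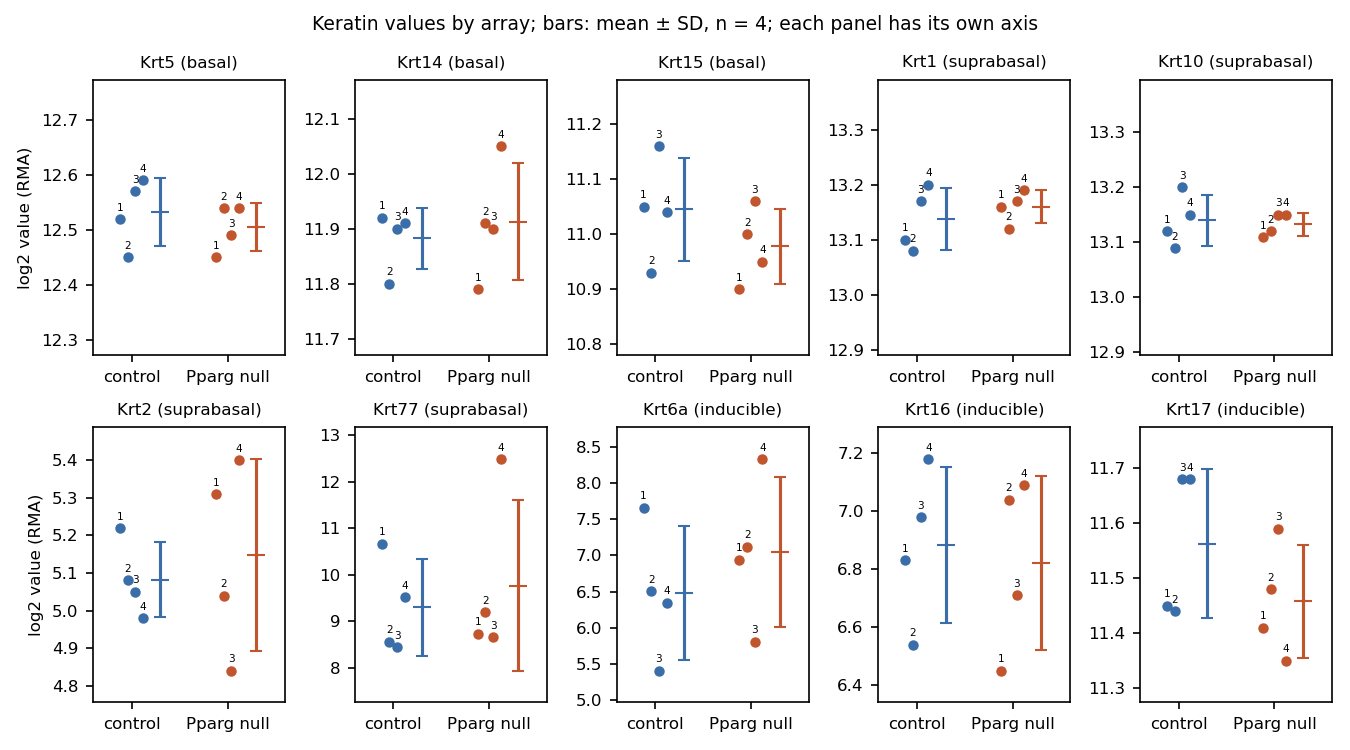
Log2 values (RMA) of the 10 keratins on each array, control in blue and Pparg null in orange, with the array number above each point and the mean ± SD of 4 arrays beside it; each panel has its own axis. Krt1 and Krt10 stayed between 13.08 and 13.20 on all 8 arrays, while Krt77 ran from 8.44 to 12.49.

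Among the basal keratins, Krt5, the type II keratin of dividing keratinocytes, read 12.52, 12.45, 12.57 and 12.59 on control arrays 1 to 4 and 12.45, 12.54, 12.49 and 12.54 on Pparg null arrays 1 to 4. The groups overlapped almost fully. The difference, Pparg null minus control, was -0.03 (SE 0.05), and its 95% interval ran from 0.908-fold to 1.06-fold.

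Krt14, the main type I partner of Krt5, read 11.92, 11.80, 11.90 and 11.91 in control skin and 11.79, 11.91, 11.90 and 12.05 in Pparg null skin. The highest value was on Pparg null array 4, and the lowest were on Pparg null array 1 and control array 2. The difference of 0.03 (SE 0.06) turned to -0.01 without Pparg null array 4, and its 95% interval ran from 0.928-fold to 1.13-fold.

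Krt15, a type I keratin of basal cells and of the follicle bulge, read 11.05, 10.93, 11.16 and 11.04 in control skin and 10.90, 11.00, 11.06 and 10.95 in Pparg null skin. Control array 3 was highest and Pparg null array 1 lowest, with the other 6 arrays mixed between them. The difference was -0.07 (SE 0.06), with a 95% interval of 0.867-fold to 1.05-fold.

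The early suprabasal pair was the steadiest of the 10. Krt1 read 13.10, 13.08, 13.17 and 13.20 on control arrays and 13.16, 13.12, 13.17 and 13.19 on Pparg null arrays. Krt10 read 13.12, 13.09, 13.20 and 13.15, then 13.11, 13.12, 13.15 and 13.15. The highest array exceeded the lowest by 1.08-fold for Krt1 and 1.08-fold for Krt10, and the 95% intervals of the genotype difference were 0.943-fold to 1.09-fold and 0.926-fold to 1.07-fold. These were among the brightest clusters on the arrays: between 13 and 48 of the 35556 clusters were brighter than Krt1, and between 16 and 45 were brighter than Krt10. The 47 clusters at or above 13 on every array had a median SD of 0.04 over the 8 arrays, against 0.10 for all tested genes, so a small spread was shared by other clusters near the top of the scale. Whether the arrays compress differences at this brightness was not tested.

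Krt2, the keratin of late upper layers, lay near the bottom of the arrays. It read 5.22, 5.08, 5.05 and 4.98 in control skin and 5.31, 5.04, 4.84 and 5.40 in Pparg null skin, where 74.0% to 80.9% of all clusters were brighter. The difference was 0.07, and without the filter on dim clusters its 95% interval in limma was 0.875-fold to 1.25-fold. At this level a difference in Krt2 would be hard to read. Krt2 is still 1 of the 4 genes in the suprabasal mean used further on.

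**Figure D2:**
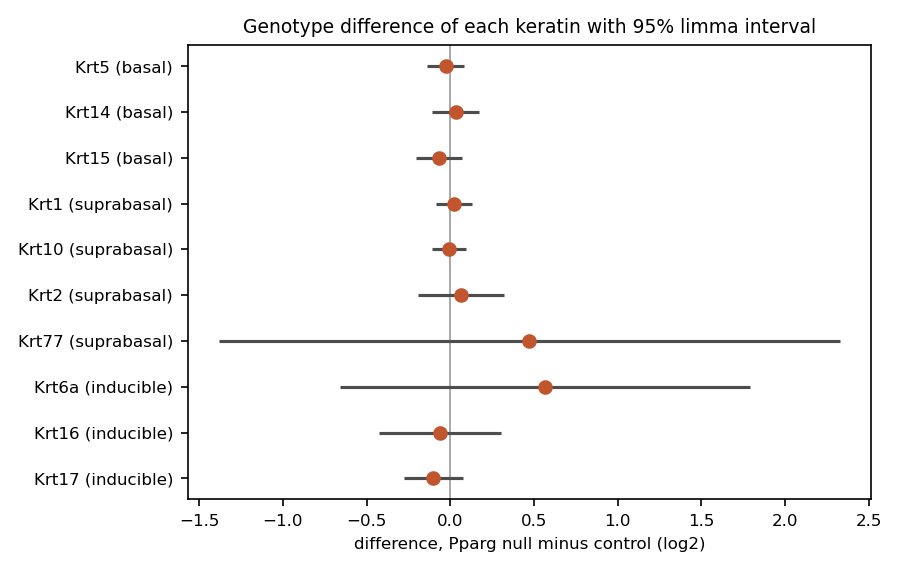
Difference of each keratin, Pparg null minus control on the log2 scale (points), with the 95% interval of limma (lines; Krt2 from the fit without the filter). All 10 intervals include 0, and those of Krt77 and Krt6a are the widest.

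Krt77 varied more between arrays of 1 group than between the group means. It read 10.67, 8.56, 8.44 and 9.52 on control arrays 1 to 4, and 8.73, 9.19, 8.66 and 12.49 on Pparg null arrays 1 to 4. The highest array of each group lay well above the rest of its group, namely control array 1 and Pparg null array 4. The highest array exceeded the lowest by 16.6-fold, and only 0.0395% of tested genes had a larger SD over the 8 arrays (rank 7 of 15174). The genotype difference was 0.47 with an SE of 0.83. Its 95% interval ran from 0.383-fold to 5.03-fold, so neither the size nor the direction of a difference was determined. Without Pparg null array 4 the difference turned to -0.43, and without both that array and control array 1 it was 0.02.

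Krt77 stands next to Krt1 on chromosome 15 with no protein-coding gene between them in the RefSeq table, and Krt2 is the neighbour on the other side of Krt1. Krt1 varied by 1.08-fold where Krt77 varied by 16.6-fold, but Krt1 was among the brightest clusters, which shared a small spread. Whether compression at that brightness plays a part in the contrast was not tested. Among the other 6 arrays Krt77 still ran from 8.44 to 9.52, or 2.12-fold, and 0.468% of tested genes had a larger SD. Xist, the RNA of the inactive X chromosome in females, was at 12.1 to 12.3 on control arrays 1 and 4 and Pparg null arrays 3 and 4, and at 4.86 to 5.39 on the others. The highest 3 arrays for Krt77 thus had high Xist, and the fourth such array (8.66) lay among the low values; whether sex plays a part was not tested.

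**Figure D3:**
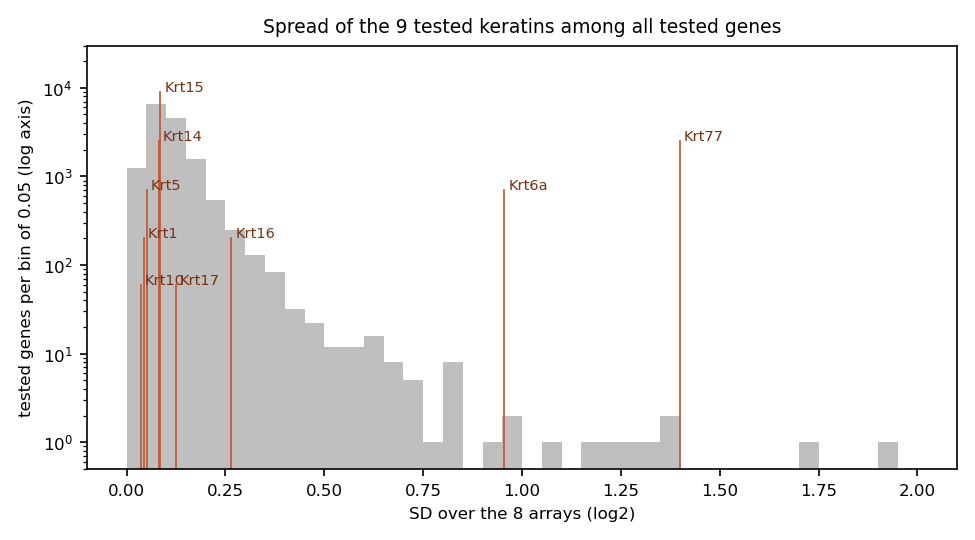
Distribution of the SD over the 8 arrays for the tested genes (grey bars, log axis; 4 genes beyond the right end are not drawn), with the 9 tested keratins marked by orange lines whose heights carry no value. Krt10 and Krt1 sit at the left end and Krt6a and Krt77 at the right.

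Of the inducible keratins, Krt6a read 7.66, 6.51, 5.41 and 6.35 in control skin and 6.94, 7.12, 5.81 and 8.33 in Pparg null skin. Its highest arrays were again Pparg null array 4 and control array 1, and its lowest were control array 3 and Pparg null array 3. The highest array exceeded the lowest by 7.54-fold, and Krt6a ranked 15 of 15174 by its SD. The difference of 0.57 (SE 0.55) had a 95% interval of 0.634-fold to 3.46-fold, and it stayed above 0 in all 8 fits with 1 array left out (0.14 to 0.98).

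Krt6b, a near-identical neighbour whose transcript Krt6a probes could also bind, did not repeat this order: it read 7.22, 6.89, 7.15 and 7.39 in control skin and 6.87, 7.21, 7.32 and 7.47 in Pparg null skin. How far probes of such similar keratins (Krt6a and Krt6b; Krt14, Krt16 and Krt17) share signal is uncertain in these data.

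Krt16, a type I partner of Krt6a, read 6.83, 6.54, 6.98 and 7.18 in control skin and 6.45, 7.04, 6.71 and 7.09 in Pparg null skin. It varied by 1.65-fold, with high and low arrays in both groups, and the difference of -0.06 (SE 0.16) changed sign without control array 4 (0.04) or Pparg null array 1 (0.06). Its 95% interval was 0.744-fold to 1.23-fold.

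Krt17, the other type I partner, read 11.45, 11.44, 11.68 and 11.68 in control skin and 11.41, 11.48, 11.59 and 11.35 in Pparg null skin. Control arrays 3 and 4 were highest, and Pparg null array 4, the highest for Krt6a, was the lowest for Krt17. The difference was -0.10 (SE 0.08), with a 95% interval of 0.825-fold to 1.05-fold.

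**Figure D4:**
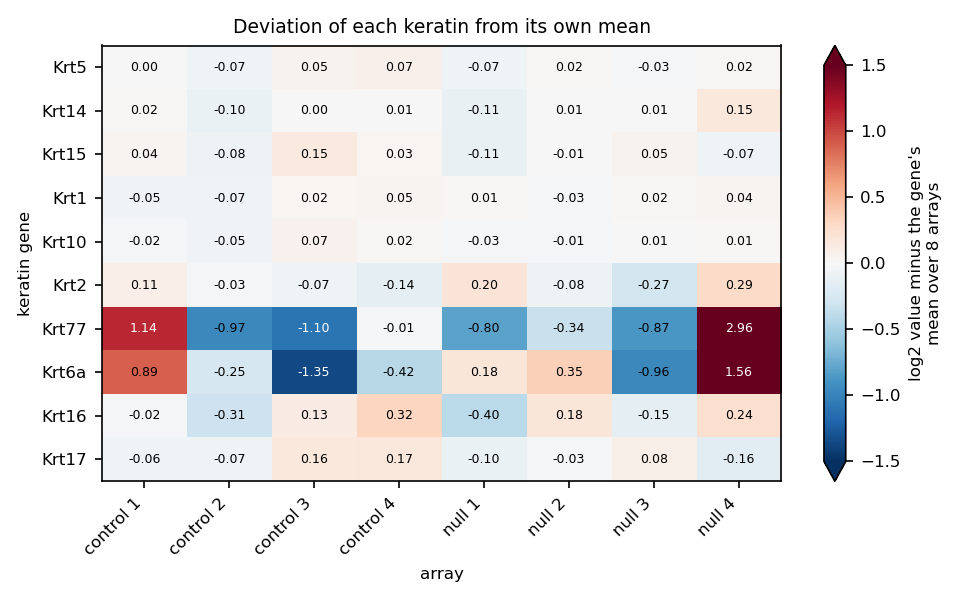
Log2 value of each keratin (rows) on each array (columns) minus that gene's mean over the 8 arrays, with red above and blue below the mean. Control array 1 and Pparg null array 4 are high for Krt77 and Krt6a (1.14 and 2.96 for Krt77), while the furthest that Krt5, Krt14, Krt1 or Krt10 lies from its mean is 0.15.

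The balance between basal and suprabasal keratins was described on each array, with no test, as the mean of the 3 basal members minus the mean of the 4 suprabasal ones after each gene was centred on its own mean. It was -0.27, 0.20, 0.33 and 0.06 on control arrays 1 to 4 and 0.06, 0.12, 0.29 and -0.79 on Pparg null arrays 1 to 4, or 0.08 ± 0.26 against -0.08 ± 0.48 (SD, n = 4 each). The difference of -0.16 turned to 0.08 without Pparg null array 4, and was -0.04 without that array and control array 1 and -0.05 without Krt77. Both negative values stood on control array 1 and Pparg null array 4, where Krt77 was high. Taken over the classical pairs alone, Krt5 and Krt14 against Krt1 and Krt10, the balance was 0.00 ± 0.03 in control skin and -0.00 ± 0.06 in Pparg null skin (SD, n = 4 each), and no array lay further from 0 than -0.08.

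Partners that assemble in the same filaments were compared across the 8 arrays, over 7 type II and type I pairs, with exact two-sided permutation p-values over all pairings of the arrays. In this family 0 of 7 pairs passed after Benjamini-Hochberg adjustment by Pearson's r and 0 by Spearman's rho. Krt1 and Krt10 gave r = 0.69 (exact permutation p = 0.0513, adjusted 0.160) and rho = 0.86 (exact permutation p = 0.0107, adjusted 0.0750), and r was 0.43 without the 2 arrays farthest from the Krt1 median. Krt5 and Krt14 gave r = 0.62 (exact permutation p = 0.0913, adjusted 0.160) and rho = 0.54 (exact permutation p = 0.177, adjusted 0.378), and r was -0.05 without control array 2 and Pparg null array 1, so the relation rested on those arrays; without control array 1 and Pparg null array 4 it was 0.83. Among all other tested genes 1.94% correlated more closely with Krt1 than Krt10 did, and 6.38% more closely with Krt5 than Krt14 did.

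Krt6a did not run with its partners. With Krt16 it gave r = 0.15 (exact permutation p = 0.717, adjusted 0.837) and rho = 0.14 (exact permutation p = 0.752, adjusted 0.877), and r was 0.05 without the 2 arrays farthest from the Krt6a median. With Krt17 it gave r = -0.83 (exact permutation p = 0.0107, adjusted 0.0752) and rho = -0.74 (exact permutation p = 0.0458, adjusted 0.160), and r was -0.64 without the 2 farthest arrays. This pair passed the adjusted threshold without control array 4 (r = -0.90, exact permutation p adjusted over 7 pairs = 0.0458). Krt77 and Krt10 gave r = 0.02 (exact permutation p = 0.963, adjusted 0.963), and 51.0% of tested genes correlated more closely with Krt77 than Krt10 did.

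Over all 45 pairs of the 10 members, 1 passed by Pearson's r and 0 by Spearman's rho, and it joined keratins of different sets. Krt5 and Krt16 gave r = 0.94 (exact permutation p = 0.00074, adjusted over 45 pairs 0.0335) and rho = 0.90 (exact permutation p = 0.0046, adjusted 0.103), with r = 0.84 without the 2 arrays farthest from the Krt5 median and r = 0.96 without control array 1 and Pparg null array 4. Krt77 and Krt6a gave r = 0.85 (exact permutation p = 0.0032, adjusted 0.0731) and rho = 0.81 (exact permutation p = 0.0218, adjusted 0.163), and r fell to 0.47 without control array 1 and Pparg null array 4, so it rested on these 2 arrays. In all, 3 of 45 member pairs (6.67%) had an r above 0.8, against 1.88% of all pairs of tested genes, and 2.22% against 1.61% had an r below -0.8. Without control array 1 and Pparg null array 4, an alternative chosen after the data were seen, 8 of 45 (17.8%) against 3.26% were above 0.8 and 2.22% against 2.89% below -0.8. Of the 3 pairs above 0.8 on all arrays, 1 was also above it there.

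The genes outside the members whose pattern over the 8 arrays was most like Krt6a were Upk3b, Krt4, Krt13, Krt7 and Mal, picked as the highest r among 6655 genes with an SD of at least 0.1 and therefore given with no p. Krt4 and Krt13 are a pair of mucosal keratins, Krt4 also marks periderm, Krt7 is a keratin of simple epithelia, Upk3b is a uroplakin of epithelial surfaces, and Mal is a protein of apical membrane transport. Their r with Krt6a was 0.97 to 0.98, and 0.92 to 0.97 over the 6 arrays without control array 1 and Pparg null array 4. Krt7 read 10.37, 8.34, 7.14 and 7.59 in control skin and 9.04, 9.31, 7.53 and 10.55 in Pparg null skin, which orders the arrays as Krt6a does. Krt13 read 8.63, 7.24, 6.04 and 6.58, then 7.75, 7.81, 6.88 and 9.25. These genes also did not pass between the genotypes (limma adjusted p = 0.9995 for each of Krt4, Krt13 and Krt7).

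The genes running most strongly opposite to Krt6a, picked in the same way, were Msx2, Lgr4, Krt73, Lrrc4 and Ogn, with r of -0.98 to -0.96. Msx2 is a transcription factor of the hair matrix and Krt73 a keratin of the inner root sheath. Msx2 read 6.37 on Pparg null array 4 and 6.54 on control array 1, against 6.62 to 6.98 on the other arrays.

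Genes most like Krt77 in their pattern were Inpp5b, Scnn1a, Hephl1, Psph and Pla2g3 (r of 0.98 for each), and over the 6 arrays without control array 1 and Pparg null array 4 their r was 0.66 to 0.82. Scnn1a, a subunit of the epithelial sodium channel, read 8.24 on control array 1 and 8.61 on Pparg null array 4, against 7.68 to 7.97 on the others. The likeness of this group therefore rested largely on those 2 arrays. The likeness to Krt6a kept an r of 0.92 to 0.97 without them. That removal left in control array 3, the lowest for Krt6a, so the 2 likenesses were not put to the same check. For the mean of the suprabasal members, which Krt77 dominates, the genes were Psph, Inpp5b, Pla2g3, Hephl1 and Ehf, the last an ETS factor of epithelial cells (r of 0.98 each, and 0.63 to 0.79 without control array 1 and Pparg null array 4). For the mean of the inducible members they were Aif1l, Sox15, Rnf222, Arpin and Vasn (r of 0.96 to 0.97, and 0.87 to 0.91 without those arrays). Krt6a dominates that mean, with an SD of 0.96 over the 8 arrays against 0.26 for Krt16 and 0.12 for Krt17. For the mean of the basal members the genes were Tbc1d9, Krtap11-1, Retreg1, Crnkl1 and Baiap3 (r of 0.95 to 0.97, and 0.95 to 0.99 without those arrays).

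**Figure D5:**
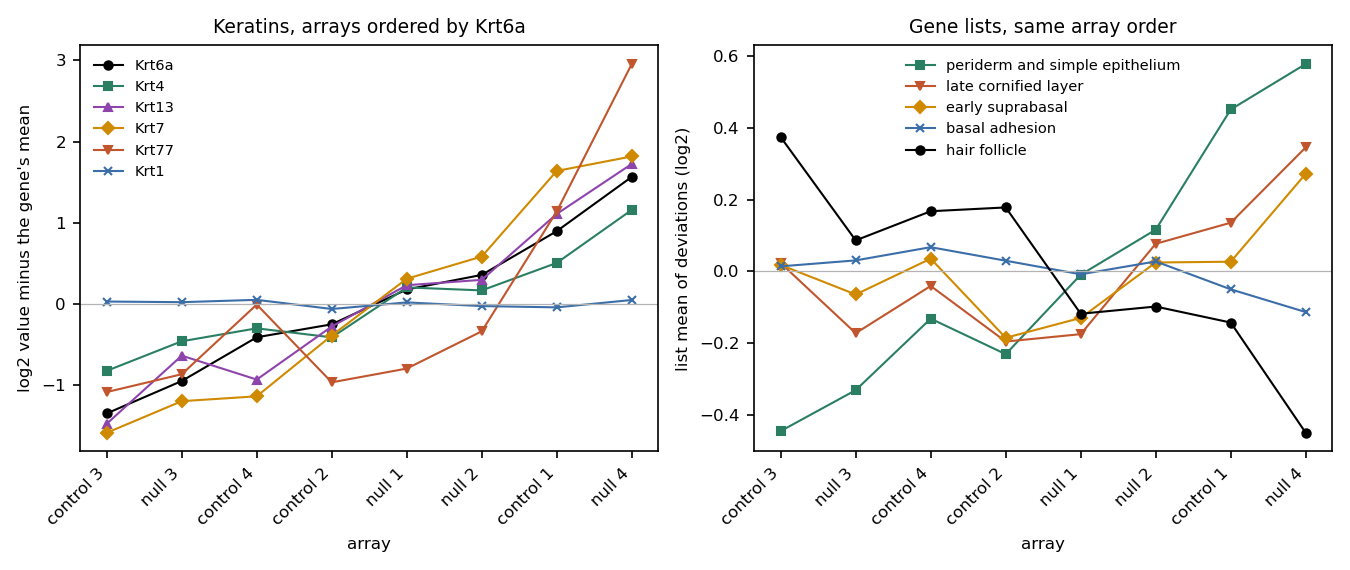
Left, keratins on the 8 arrays ordered by Krt6a, as log2 value minus each gene's mean; right, mean deviation of 5 gene lists in the same order. Krt4, Krt13 and Krt7, which were picked for their high r with Krt6a, follow it from control array 3 to Pparg null array 4, and Krt1 stays flat. The hair follicle list runs from 0.37 to -0.45 and includes Msx2, picked as running opposite to Krt6a. The periderm list includes Krt4 and Krt7.

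The genes that accompany these keratins in the epidermis were described as 7 lists. Of their 86 tested genes, 0 passed limma over all genes and 0 had an unadjusted p under 0.05; 31 lay below control and 55 above, with a median difference of 0.03. These directions rested on Pparg null array 4: without it 58 lay below and 28 above (median -0.03), and without control array 1 as well 55 lay below and 31 above. Of 11 tested genes of basal adhesion, 8 lay below control and 3 above (median -0.02; 5 below and 6 above without Pparg null array 4), among them Itgb4, the hemidesmosomal integrin, at -0.09, and the laminin receptor Bcam at -0.09. Of 10 early suprabasal genes 9 lay above (median 0.05), but 9 lay below without Pparg null array 4 (median -0.02), where the list was at 0.27 against -0.18 to 0.04 on the 6 arrays other than it and control array 1. Krtdap, the keratinocyte differentiation-associated protein, was at 0.12 (0.08 without that array) and desmoplakin (Dsp) at 0.06 (-0.0038). Of 14 genes of the late cornified layer 6 lay above and 8 below (median -0.01), and 13 lay below without that array (median -0.08). Filaggrin-2 (Flg2) was at -0.17 and Sprr1a, a cornified envelope precursor, at 0.90 (0.46 without that array, and 1.09 without control array 1 as well).

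Of 19 tested regulators of keratin genes 11 lay above control and 8 below (median 0.01), and 12 lay below without Pparg null array 4. Trp63, the master regulator of stratified epithelium, read 10.34 to 10.46 in control skin and 10.31 to 10.45 in Pparg null skin. Ehf was at 7.61, 7.21, 7.18 and 7.27 in control skin and 7.33, 7.41, 7.23 and 8.16 in Pparg null skin. Its difference of 0.21 was 0.0026 without Pparg null array 4, and 0.10 without control array 1 as well. Cebpa differed by -0.09 (-0.14 without that array). Of 9 tested genes of the alarm and wound response 8 lay above (median 0.06), of 10 keratin filament partners 7 lay above (median 0.02), and of 13 other epithelial keratins 11 lay above (median 0.10). Without Pparg null array 4 these counts were 4 of 9, 3 of 10 and 6 of 13. Krt79 was at -0.37 (-0.16 without that array) and Krt75 at -0.17.

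Control array 1 and Pparg null array 4, with the highest Krt77 and Krt6a, were also the highest for some of these lists. The list of the late cornified layer was 0.14 above its mean on control array 1 and 0.35 on Pparg null array 4, against -0.20 to 0.08 on the other arrays. Sprr1a is 1 of the 14 genes of that list and had the largest SD among them (1.26, against 0.53 for Sprr2d, the next). The list mean on control array 1 therefore rested largely on Sprr1a. It read 10.83, 9.18, 7.72 and 8.03 in control skin and 9.73, 9.97, 8.51 and 11.15 in Pparg null skin, an order close to that of Krt6a. Loricrin (Lor), by contrast, read 12.90 to 13.07 on all 8 arrays.

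Markers of other cell types were set beside the keratins. The 9 markers of periderm and simple epithelium, all tested, were on average 0.45 above their means on control array 1 and 0.58 on Pparg null array 4, against -0.44 to 0.12 on the others. On both arrays Krt4, Krt7, Krt18, Krt19 and Cldn4 were above all others, and Krt4 and Krt7 had already been picked as most like Krt6a. Krt8 and Sfn were so only on Pparg null array 4, and Cldn6 only on control array 1. Grhl2 was below all others on both (8.27 and 8.18 against 8.31 to 8.48). Krt8 and Krt18, defining keratins of simple epithelium, read 8.05 to 8.77 and 6.42 to 7.41. The 15 tested hair follicle markers of 17 ran the other way on average, at -0.14 and -0.45 on these arrays and -0.12 to 0.37 on the others. Not every marker did so: control array 1 was the highest of all arrays for Krt31 (6.07) and Krt34 (7.57). Krt33b (7.97) and Trps1 (10.52) were also high there. Msx2 is in this list and had already been picked as running most strongly opposite to Krt6a. All 15 lay below control in Pparg null skin (14 of 15 without Pparg null array 4). Of them 3 had an unadjusted p under 0.05 in limma, as did 3.61% of all tested genes. Their part in the spread of Krt77 and Krt6a was not tested. Markers of keratinocytes of all layers, 4 of them members, lay within -0.10 to 0.13 of their means on all arrays. Markers of dermal fibroblasts lay between -0.15 and 0.07 and those of skeletal muscle between -0.27 and 0.25, each lowest on Pparg null array 4. The 3 tested blood markers lay between -0.29 and 0.24 and the 6 melanocyte markers between -0.16 and 0.16. The white adipocyte list was the one with called genes. In it 4 of 8 tested genes passed, all 4 lower in Pparg null skin, against 0.119% of all tested genes. Of the 8 genes 7 lay below control, and Pparg itself lay above it at 0.18.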

How the data were processed

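RNA of 4 control and 4 Pparg null samples was hybridised to 1 array each. The deposited values are log2 values. The submitters' processing notes name RMA and Affymetrix Expression Console; the sources used here give no version, build or filter. RMA equalizes array distributions and would hide a shift common to all transcripts.

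The platform annotation gave 1 symbol to 21789 of 35556 clusters, updated through RefSeq gene IDs (GRCm38.p6) for 21698. Clusters entered the test if 4 or more of 8 arrays placed them over the 30th percentile; the brightest cluster stood for a gene. Groups were compared over all genes with limma 3.58.1 (R 4.3.3, lmFit and eBayes, two-sided, Benjamini-Hochberg, threshold 0.05), without covariates. Correlations and single differences used exact permutation tests. The number of arrays limits the precision. The steps were checked on data made with known answers. Members, lists, partner pairs and alternatives were chosen with earlier results of these data known. Named genes were all members, Pparg, the 5 genes most like each set, and up to 4 genes per list with the smallest p; the likeness to Krt77 and Krt6a, its opposite, all 45 pairs and other named list genes were chosen after their values were seen. Alternatives were other filters, scalings, priors, array weights, the replicate block, clusters averaged or tested singly, and arrays left out. Deviations from the group mean correlated between arrays of the same number at -0.31, 0.20, 0.05 and -0.03 over tested genes. These values give no sign of pairing by number, and the labels name no pairing, but they cannot show that there was none.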

Additional observations from a re-analysis of the deposited data

Results flagged for a closer look

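In 13 of 204 groups of 4 values, 1 array lay far from the rest of its group. Chance gives about 1 in 20 for independent groups. The groups here include set means and genes picked for likeness to the members, so they are not independent and that rate cannot be set against the 13. Of the members, Krt14 read 11.80 on control array 2 against 11.90 to 11.92 on the other control arrays, and Krt77 read 12.49 on Pparg null array 4 against 8.66 to 9.19. The mean of the suprabasal keratins, centred gene by gene, was 0.82 on that array against -0.28 to -0.12.

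Among genes most like or opposite to the keratins, Pparg null array 4 was far out for Psph (8.49 against 7.99 to 8.03), Inpp5b (9.19 against 8.90 to 8.94), Pla2g3 (7.64 against 6.77 to 6.89), Il31ra (6.20 against 7.24 to 7.32) and Nrp2 (9.79 against 10.09). These genes were picked for following or opposing Krt77 or the suprabasal mean, which are far out on that array. Their flags therefore follow from the picking and add no separate observation. Crnkl1 read 7.49 on control array 2 against 7.76 to 7.79, and 7.51 on Pparg null array 1 against 7.73 to 7.75. It was picked for likeness to the basal mean, which was lowest on the same arrays. Among list genes, the corneodesmosomal Cdsn read 11.19 on Pparg null array 4 against 10.96 to 10.98, the leukocyte gene Ptprc read 7.33 there against 7.49 to 7.51, and Dpt, of the dermal matrix, was at 11.85 on control array 4 and at 11.76 to 11.77 on its fellows.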

How the results depend on the processing

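No tested keratin passed the limma threshold under any of 18 settings (17 for Krt6a, which did not enter with the filter at the 50th percentile). Of 183 differences under other settings, 64 repeat the reported value by construction, and all 8 that turned were among the 90 with arrays left out. They were Krt14 without Pparg null array 4 (-0.014) and without that array and control array 1 (-0.0023), Krt1 without both arrays (-0.0011; 0.0032 to 0.041 with 1 array left out), Krt10 without control array 3 (0.012), Krt77 and Krt2 without Pparg null array 4 (-0.43 and -0.019), and Krt16 without control array 4 (0.035) or Pparg null array 1 (0.061). With 1 array left out the range was -0.014 to 0.073 for Krt14, -0.026 to 0.012 for Krt10, -0.43 to 0.93 for Krt77, -0.019 to 0.17 for Krt2 and -0.18 to 0.061 for Krt16. The count of 18 genes was 1 with the replicate block, 1 with every cluster tested on its own, and 3 to 15 with 1 array left out. Own-numbered arrays were never the best match, and the block changed no keratin call. The basal minus suprabasal difference of -0.16 was -0.56 with each gene divided by its SD, which is another unit, and -0.28 to 0.077 with 1 array left out, turning without Pparg null array 4. Without that array the list medians, an alternative chosen after the data were seen, turned to 0.0063 (basal adhesion), -0.023 (early suprabasal), -0.0065 (regulators), -0.00036 (alarm and wound), -0.049 (filament partners), -0.033 (other keratins) and -0.033 (all lists); without both arrays early suprabasal was -0.017, regulators -0.042, filament partners -0.033 and all lists -0.027. The count of 0 partner pairs was 0 to 1 with 1 array left out, the 1 being Krt6a and Krt17 without control array 4. The r of Krt77 and Krt10 turned negative without control array 2 (-0.17), Pparg null array 1 (-0.057), Pparg null array 4 (-0.20) and both arrays (-0.081), and was -0.20 to 0.44 with 1 array left out. The r of Krt6a and Krt16 was -0.13 without Pparg null array 4 (-0.13 to 0.32 with 1 array left out) and -0.19 without both. Apart from the values named, the cause was not tested.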
